A study of Homo sapiens with 12 samples.

Results

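The genes described here are 36 genes of cholesterol synthesis, sterol sensing, cholesterol transport and fatty acid synthesis, most of them known targets of the sterol regulatory element-binding proteins (SREBPs). Membership was set by gene name and pathway, with earlier results of these data known, and all 36 were found among the 20503 genes named on the array, read by 43 of its 50599 non-control probes. Their mRNA levels were compared between HA22T and PLC5, both human hepatocellular carcinoma cell lines, and between siControl and siGALNT1 in each line. GALNT1 is a GalNAc-transferase that starts O-glycosylation, the addition of sugar chains to serine and threonine. Cells of the siControl groups received a non-targeting siRNA and cells of the siGALNT1 groups a pool of siRNAs against GALNT1, each at 10 nM in medium with fetal bovine serum, and total RNA was taken after 48 h. Each of the 4 groups, HA22T siControl, HA22T siGALNT1, PLC5 siControl and PLC5 siGALNT1, had 3 one-colour Agilent arrays. No untransfected cells were compared, 1 line stood for each side of the line comparison, and serum, which carries lipoprotein cholesterol, was present in every group.

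Cholesterol is built from acetyl-CoA in a mevalonate arm that ends in farnesyl and geranylgeranyl diphosphate, and a sterol arm that closes squalene into lanosterol and trims it to cholesterol. When membranes are short of sterol, SCAP carries the SREBPs from the endoplasmic reticulum to the Golgi, where they are cut to release a transcription factor, and when sterol is plentiful the INSIG proteins hold them back. SREBP-2, from SREBF2, acts mainly on cholesterol genes and SREBP-1, from SREBF1, mainly on fatty acid genes, and in the liver both are central to lipid supply. The arrays read the mRNA of whole cultures, in which fewer cells with a transcript and less of it per cell cannot be told apart, and they show neither protein, cleavage of the SREBPs nor the amount of sterol.

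The labels were first checked against the arrays. On the log2 scale set to each array's 75th percentile, the brighter GALNT1 probe read 0.97 ± 0.30 in HA22T siControl and -4.13 ± 1.26 in HA22T siGALNT1 (mean ± SD, n = 3). In PLC5 it read 0.62 ± 0.25 with siControl against -3.10 ± 1.04 with siGALNT1. The limma adjusted p of these differences was 0.0708 in HA22T and 1.00 in PLC5, so the test did not call the targeted gene by its brighter probe, while the dimmer probe was called in HA22T alone (adjusted p = 0.0305). Of 7 hepatocyte markers, 6 were lower in HA22T than in PLC5 with siControl by the limma test, among them TF, by 9.62, and ALB, by 3.96 on the log2 scale, while AFP differed by -0.30. TF was well above background on 1 of the 3 HA22T siControl arrays and ALB on all 3. Of 4 epithelial markers, the keratins KRT8 and KRT18 were well above background on all 12 arrays, while EPCAM and CDH1 were so on at most 2 of the 3 arrays of any group. Of the mesenchymal markers with a value on all 12 arrays, VIM was higher in HA22T by 5.54, FN1 was lower by 3.60, and COL1A2 was well above background on 1 array of each HA22T group and 0 of PLC5. The part of this difference in hepatocyte character in the results below was not tested. Replicate arrays correlated at 0.968 to 0.988 over the 22277 probes that no array read as dim. Whether the replicates came from separate cultures is not given in the sources used here, so the p-values measure the spread between these arrays, which may be technical.

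To show the stretches of DNA on which SREBPs and their partners are known to act, the RefSeq promoter windows (GRCh38.p14, from 250 bases before to 50 bases after the annotated start) were read for 32 of the 36 genes. FDFT1, FASN, ACAT2 and SQLE had no window. Each window was searched on both strands for TCACNCCAC, a sterol response element, for CCAAT, the motif of the partner NF-Y, and for GGGCGG, a motif of the partner Sp1. The letters of no motif hold another of the 3, and a gene with several windows was counted once if any of them held a match. TCACNCCAC was found for 1 of the 32 genes (3.12%), against 1.39% of 27305 genes with a window and 1.47% of the 13389 such genes counted in the line comparison. Other forms of the sterol response element were not searched for, so a window without this match may still hold one. CCAAT was found for 24 genes (75%), against 39.7% of all genes and 42.3% of the counted genes. GGGCGG was found for 30 genes (93.8%), against 48.3% and 68.0%. Among enzymes of the mevalonate and sterol arms, 14 of 16 with a window held CCAAT. A match is a description of letters and was not measured here as a bound site.

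The windows of 5 genes are given, with matches in capitals, 5′ to 3′ on the strand of the gene. They are the 3 synthesis enzymes with the largest difference between the lines, described below, and both SREBP genes. TM7SF2 (chr11:65111622-65111921, plus strand) held 1 CCAAT and 4 GGGCGG matches, CYP51A1 (chr7:92134428-92134727, minus strand) 1 GGGCGG match, and MSMO1 (chr4:165327419-165327718, plus strand) 4 CCAAT and 2 GGGCGG matches. SREBF1 (chr17:17836937-17837236, minus strand) held 3 GGGCGG matches. SREBF2 (chr22:41832855-41833154, plus strand) held the only TCACNCCAC match among the 32, 133 bases before the start. It also held 1 CCAAT and 3 GGGCGG matches, a pair of the latter sharing a base.
TM7SF2: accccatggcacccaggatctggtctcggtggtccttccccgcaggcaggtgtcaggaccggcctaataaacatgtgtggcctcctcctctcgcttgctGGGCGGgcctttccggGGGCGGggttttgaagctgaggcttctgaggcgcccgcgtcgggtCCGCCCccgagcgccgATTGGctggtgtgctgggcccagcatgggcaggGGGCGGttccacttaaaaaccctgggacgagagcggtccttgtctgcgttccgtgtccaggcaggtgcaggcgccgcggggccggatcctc
CYP51A1: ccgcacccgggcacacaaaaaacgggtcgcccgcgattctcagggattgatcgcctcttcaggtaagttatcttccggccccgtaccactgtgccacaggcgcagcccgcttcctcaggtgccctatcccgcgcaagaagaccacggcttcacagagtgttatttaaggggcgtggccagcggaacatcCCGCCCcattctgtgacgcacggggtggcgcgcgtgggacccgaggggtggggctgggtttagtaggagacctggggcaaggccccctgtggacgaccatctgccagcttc
MSMO1: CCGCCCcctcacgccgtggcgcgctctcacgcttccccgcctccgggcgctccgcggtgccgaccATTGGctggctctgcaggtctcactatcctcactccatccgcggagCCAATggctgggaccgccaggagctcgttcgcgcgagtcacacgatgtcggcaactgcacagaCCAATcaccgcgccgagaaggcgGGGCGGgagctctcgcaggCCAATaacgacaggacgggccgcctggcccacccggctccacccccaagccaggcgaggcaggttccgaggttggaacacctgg
SREBF1: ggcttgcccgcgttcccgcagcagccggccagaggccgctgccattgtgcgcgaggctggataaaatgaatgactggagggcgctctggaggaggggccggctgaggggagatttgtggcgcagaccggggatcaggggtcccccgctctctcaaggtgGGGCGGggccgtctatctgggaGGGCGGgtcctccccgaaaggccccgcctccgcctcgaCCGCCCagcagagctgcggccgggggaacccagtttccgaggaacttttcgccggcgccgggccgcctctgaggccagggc
SREBF2: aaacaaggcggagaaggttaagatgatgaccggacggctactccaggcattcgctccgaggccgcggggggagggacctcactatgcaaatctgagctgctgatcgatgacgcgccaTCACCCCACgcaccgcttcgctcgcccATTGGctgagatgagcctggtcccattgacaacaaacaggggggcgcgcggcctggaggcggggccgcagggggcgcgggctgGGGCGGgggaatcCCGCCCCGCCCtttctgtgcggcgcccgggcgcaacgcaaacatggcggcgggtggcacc

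Between the lines with siControl, 9 of the 19 enzymes of the mevalonate and sterol arms were called lower in HA22T and 10 were not called, while SREBF1 and FADS2 were called higher there. Of the 36 genes, 15 differed at a Benjamini-Hochberg adjusted p under 0.05 in the limma test, 4 higher and 11 lower in HA22T. Over all 17414 genes counted, 26.6% were called, 14.2% higher and 12.4% lower. With only probes well above background on all 6 arrays, which left NPC1L1 out, 14 of 33 genes were called. The share of all genes called with that filter is not given here. The median difference, HA22T minus PLC5 on the log2 scale, was -0.66 over the 36 genes and 0.10 over all counted genes. It was -0.40 without PLC5 siControl replicate 1. Of the 35 genes with 3 values in each group, the groups did not overlap for 17 lower and 6 higher in HA22T, against 20.7% and 26.8% of all such genes. With 3 arrays against 3, an exact permutation test of a single gene cannot go below 0.1, so the calls rest on the fit across all probes.

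Of the 19 enzymes, 9 were called lower in HA22T and 0 higher, 17 had a negative difference, and their median was -1.04. With siGALNT1, on 6 other arrays, 8 of the 19 were called lower and 0 higher, 18 were negative and the median was -0.90. Over all counted genes, 12.4% were called lower and 45.3% were negative with siControl, and 15% and 46.5% with siGALNT1. For the 8 genes of the fatty acid arm the siControl median was 0.06, with 2 called higher and 1 lower. The other 3 called genes, SREBF1, NPC1L1 and NPC1, were outside these arms, and no test compared the arms.

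**Figure D1:**
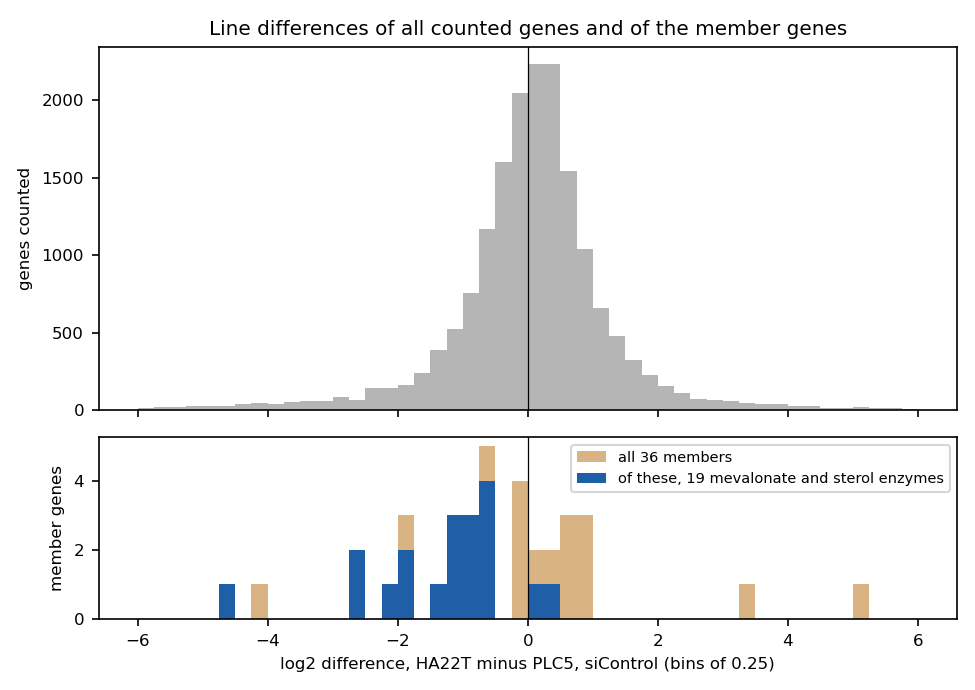
Histograms of the log2 difference, HA22T minus PLC5 with siControl, in bins of 0.25, for the genes counted (upper panel, 17255 of 17414 genes lie within the axis) and for the 36 member genes with the 19 synthesis enzymes in blue (lower panel). The enzymes lie mostly left of 0, with a median of -1.04 against 0.10 for all counted genes, while SREBF1 and FADS2 stand alone at the right.

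In the mevalonate arm, 3 of 8 enzymes were called lower in HA22T, against 12.4% of all counted genes. For 7 of 8 the groups did not overlap, with HA22T lower, against 20.7% of all genes with 3 values in each group. HMGCS1, which makes HMG-CoA from acetyl-CoA and acetoacetyl-CoA, read -1.56, -1.21 and -1.77 on the HA22T siControl arrays and 0.26, 0.38 and 0.26 on the PLC5 siControl arrays. All HA22T arrays lay below all PLC5 arrays, and the levels were 3.52-fold lower (log2 difference -1.82, SE 0.31, limma adjusted p = 0.00145). IDI1, the isomerase that turns isopentenyl diphosphate into dimethylallyl diphosphate, read -1.31, -1.26 and -1.13 in HA22T and 0.65, 0.96 and 0.71 in PLC5. Its levels were 4.01-fold lower in HA22T (SE 0.36, limma adjusted p = 0.00193). MVD, which decarboxylates the last phosphorylated mevalonate, differed by -0.94 (SE 0.28, limma adjusted p = 0.0351).

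The other mevalonate enzymes did not pass the test in the main fit. ACAT2 and PMVK did with slide as a block, which rests on PLC5 replicate 1. ACAT2 also did with normexp background correction, quantile normalization, the trend in eBayes, a spread estimate from counted probes and the mean over probes. It did so without HA22T siControl replicate 2 too. GGPS1 did with the replicate block, that trend, that spread estimate, the mean over probes and some single arrays left out. ACAT2, the cytosolic thiolase that opens the pathway, differed by -1.11 and GGPS1, which makes geranylgeranyl diphosphate, by -1.04, with limma adjusted p of 0.0623 and 0.0522. PMVK, a mevalonate phosphate kinase, differed by -0.79 and FDPS, which makes farnesyl diphosphate, by -0.62. MVK, the first mevalonate kinase, was the exception in sign, at 0.40 with a 95% interval from -0.22 to 1.01. With quantile normalization its difference was negative as well.

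In the sterol arm, 6 of 11 enzymes were called lower in HA22T, against 12.4% of all counted genes. The largest difference was in TM7SF2, a sterol C14 reductase that works just after lanosterol demethylation. It read -5.12, -4.10 and -3.65 in HA22T siControl and 0.73, 0.49 and 0.14 in PLC5 siControl. The lines were separated by a wide gap, with HA22T 26.8-fold lower (log2 difference -4.75, SE 0.46, limma adjusted p = 2.05e-05). With normexp background correction the log2 difference was -3.83. CYP51A1, the lanosterol demethylase of the step before it, read 0.28, -0.38 and -0.27 in HA22T and 2.08, 2.95 and 2.45 in PLC5. It was 6.13-fold lower in HA22T (log2 difference -2.62, SE 0.34, limma adjusted p = 1.85e-04). MSMO1, which oxidises the C4 methyl groups in the steps that follow, read -2.41, -1.77 and -1.76 in HA22T and 0.04, 1.27 and 0.50 in PLC5. Its groups did not overlap and HA22T was 5.98-fold lower (log2 difference -2.58, SE 0.53, limma adjusted p = 0.00420).

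A further 3 enzymes of the arm were called lower. DHCR7, the reductase that ends one branch of the pathway in cholesterol, read -0.70, -0.03 and 0.47 in HA22T and 2.26, 1.63 and 1.42 in PLC5. The spread within each line was wide but the lines did not overlap, and HA22T was 3.63-fold lower (log2 difference -1.86, SE 0.44, limma adjusted p = 0.00993). LSS, the cyclase that forms lanosterol, read -0.81, -1.68 and -0.92 in HA22T and 0.74, 0.16 and -0.26 in PLC5. LSS was 2.55-fold lower in HA22T (log2 difference -1.35, SE 0.41, limma adjusted p = 0.0354). The LSS call was lost with median scaling, with the methods' t-test and with the mean over its 2 probes, at adjusted p up to 0.121. SC5D, the desaturase before DHCR7, read -3.22, -3.44 and -3.22 in HA22T and -2.43, -1.91 and -2.04 in PLC5. SC5D was 2.24-fold lower in HA22T (log2 difference -1.16, SE 0.31, limma adjusted p = 0.0192).

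The remaining sterol enzymes were FDFT1, squalene synthase, at -0.97, SQLE, squalene epoxidase, at -0.73, HSD17B7, a sterol ketone reductase, at -0.73 (2 arrays in HA22T siControl), NSDHL, a C4 decarboxylating dehydrogenase, at -0.69, and EBP, the sterol isomerase, at 0.06. None of these 5 passed the test in the main fit, although FDFT1 and NSDHL did with slide as a block, which rests on PLC5 replicate 1. FDFT1 also did with normexp background correction, and SQLE with the methods' t-test. The EBP interval ran from -0.53 to 0.65, and EBP read 4.12, 3.71 and 3.85 in HA22T against 4.27, 3.83 and 3.40 in PLC5, so the groups overlapped.

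**Figure D2:**
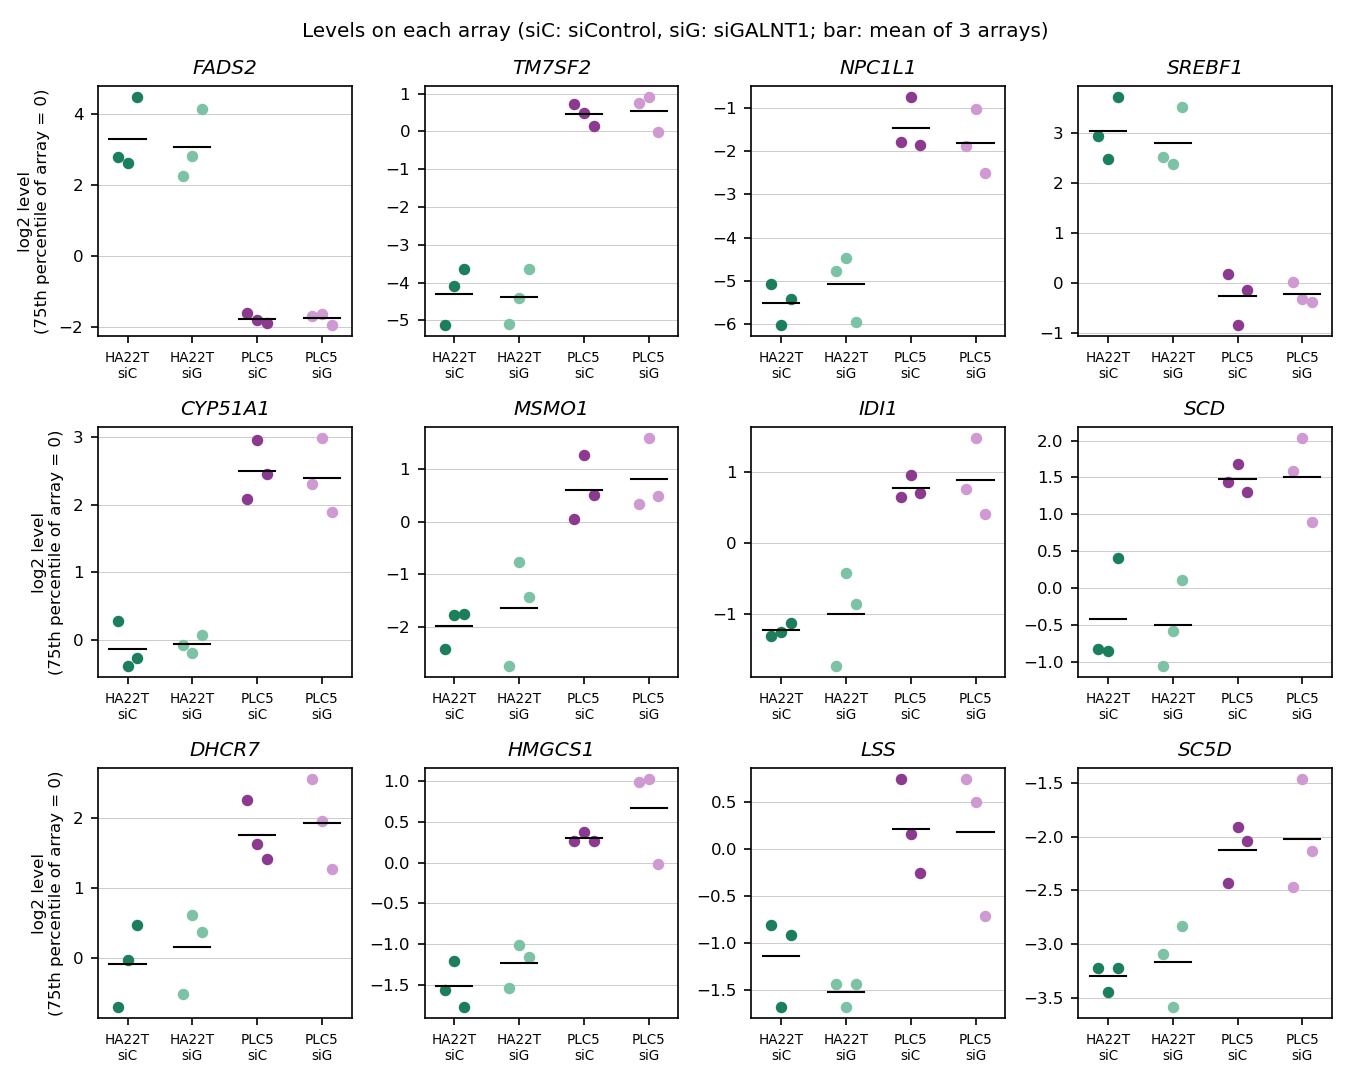
Level on each array (points) and group mean (bars) for the 12 genes with the largest called difference between the lines, on the log2 scale with each array's 75th percentile at 0, for siControl (siC) and siGALNT1 (siG) in HA22T and PLC5. In each panel the HA22T and PLC5 points of one siRNA do not overlap, while siControl and siGALNT1 points of one line do, as for TM7SF2 at -5.12 to -3.65 and -5.09 to -3.64 in HA22T.

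Among the sterol sensors, SREBF1 alone was called. SREBF1 read 2.94, 2.48 and 3.72 in HA22T siControl and 0.18, -0.84 and -0.14 in PLC5 siControl. HA22T was 9.95-fold higher (log2 difference 3.32, SE 0.41, limma adjusted p = 1.37e-04). The dimmer of the 2 SREBF1 probes was also higher in HA22T, by 2.23 (limma adjusted p = 0.00444), and both probes carry the same transcript accession, so SREBP-1a and SREBP-1c were not told apart. SREBF2 read 2.64, 3.08 and 3.53 in HA22T and 3.19, 3.18 and 3.05 in PLC5. The SREBF2 groups overlapped, at a log2 difference of -0.06 with a 95% interval from -0.75 to 0.64. SCAP, the escort of the SREBPs, differed by -0.15 (interval -0.71 to 0.41), INSIG1 by 0.75 (interval -0.56 to 2.07) and INSIG2 by 0.56 (interval -0.49 to 1.61). The dimmer INSIG2 probe differed by 1.01 (limma adjusted p = 0.0398), so the 2 probes of that gene lay on either side of the threshold.

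In transport and uptake, NPC1L1, the intestinal and hepatic cholesterol importer, read -5.08, -6.02 and -5.42 in HA22T siControl and -1.78, -0.76 and -1.85 in PLC5 siControl. The brighter NPC1L1 probe was well above background on only 1 of the 3 HA22T arrays, so that it was counted through its PLC5 arrays, and its log2 difference of -4.04 is given as a description with no exact fold. With normexp background correction the difference was -2.63, and with the mean over both probes, the other of which was not counted, it was -2.33. NPC1, which moves cholesterol out of lysosomes, was higher in HA22T by 0.74 (SE 0.24, limma adjusted p = 0.0467). STARD4, a carrier of cholesterol between membranes, differed by 0.81 and MYLIP, a ubiquitin ligase induced by sterol that removes lipoprotein receptors, by 0.98, with limma adjusted p of 0.0756 and 0.108.

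The fatty acid arm was divided. FADS2, the Δ6 desaturase of polyunsaturated fatty acids, had the largest difference of all 36 genes. It read 2.81, 2.62 and 4.48 in HA22T siControl and -1.59, -1.81 and -1.89 in PLC5 siControl. HA22T was 33.5-fold higher (log2 difference 5.07, SE 0.53, limma adjusted p = 3.75e-05), with 1 HA22T array above the others and no overlap. SCD, which makes monounsaturated fatty acids, read -0.83, -0.86 and 0.41 in HA22T and 1.44, 1.68 and 1.30 in PLC5, the opposite order. SCD was 3.73-fold lower in HA22T (log2 difference -1.90, SE 0.43, limma adjusted p = 0.00779). ACSL3, an acyl-CoA synthetase, was higher in HA22T by 0.72 (SE 0.22, limma adjusted p = 0.0369). The core of the arm did not pass the test, with ACLY, which supplies cytosolic acetyl-CoA, at -0.14, ACACA, which makes malonyl-CoA, at 0.22, FASN, the synthase, at -0.58, ELOVL6, an elongase, at 0.29 and FADS1, the Δ5 desaturase, at -0.10. The FASN interval ran from -1.60 to 0.43.

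**Figure D3:**
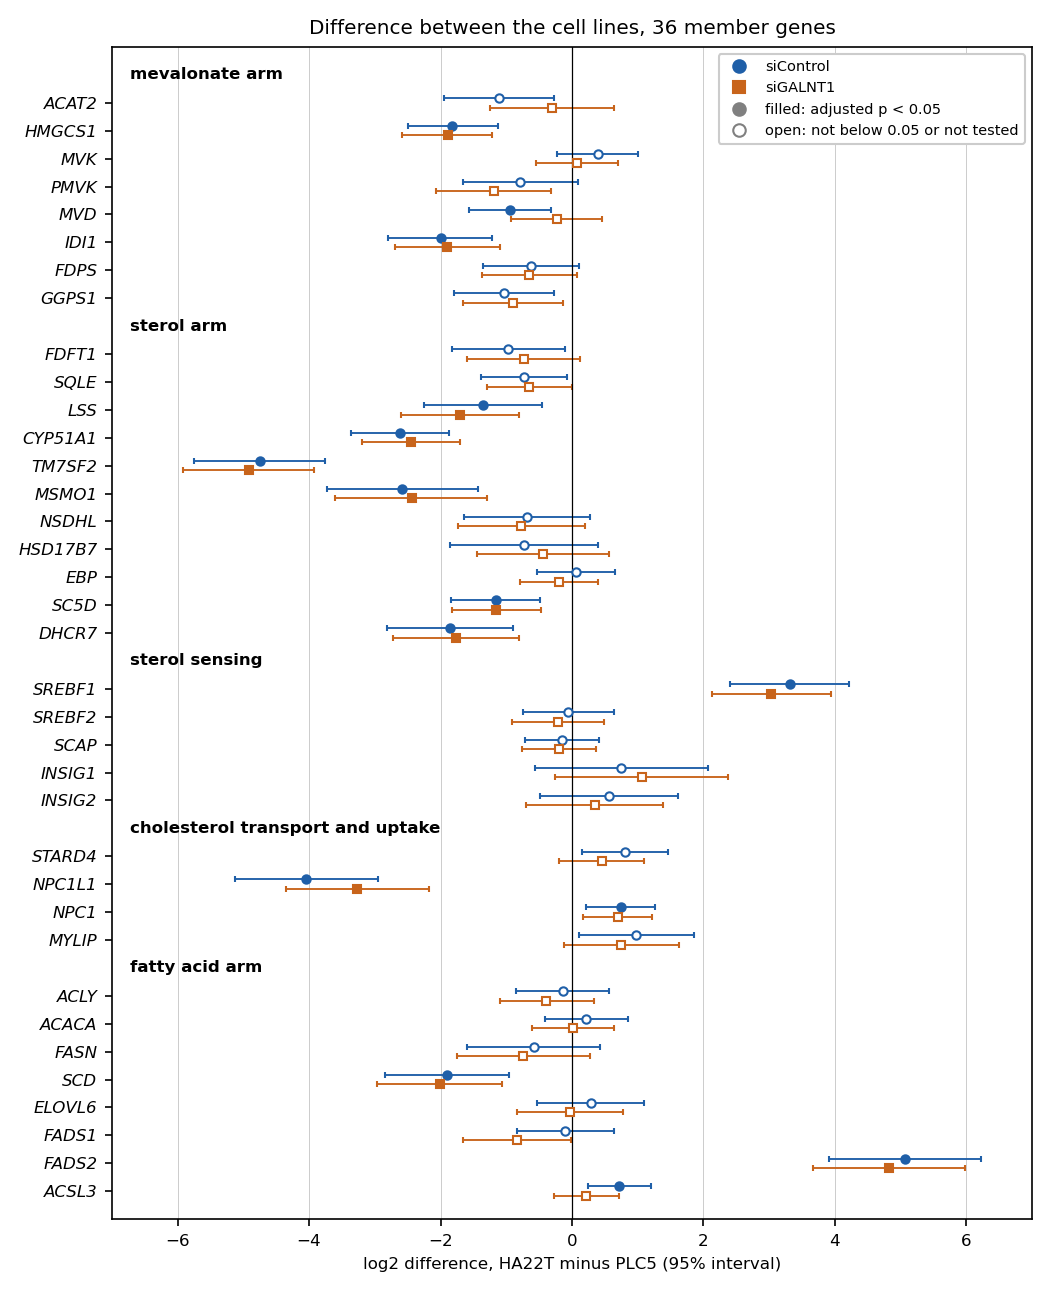
Log2 difference, HA22T minus PLC5, with its 95% interval for each of the 36 genes by role, with siControl (circles) and siGALNT1 (squares), filled where the limma adjusted p was under 0.05. The called enzymes of the mevalonate and sterol arms all lie left of 0, and FADS2 at 5.07 and SREBF1 at 3.32 lie farthest right with siControl.

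With siGALNT1, 12 of the 36 genes were called, 2 higher and 10 lower in HA22T, against 26.6% of 17198 genes (11.6% higher and 15% lower), and the median was -0.55 against 0.07 over all counted genes. The median was -0.36 without HA22T siGALNT1 replicate 1, and without PLC5 siGALNT1 replicates 1, 2 and 3 in turn it was -0.34, -0.38 and -0.87. With the filter on all 6 arrays, for which the share of all genes is not given, 10 of 30 genes were called, NPC1L1 and TM7SF2 no longer being counted. The groups did not overlap for 12 genes lower and 3 higher in HA22T of the 33 with 3 values in each group, against 23.6% and 21.4% of all such genes. All 12 genes were among the 15 called with siControl and had the same sign. TM7SF2 read -5.09, -4.40 and -3.64 in HA22T siGALNT1 and 0.75, 0.90 and -0.02 in PLC5 siGALNT1, a difference of -4.92 (SE 0.46, limma adjusted p = 1.68e-05), although it was well above background on only 2 of the 3 HA22T arrays. FADS2 read 2.27, 2.82 and 4.14 in HA22T and -1.68, -1.63 and -1.94 in PLC5. SREBF1 read 2.52, 2.38 and 3.52 in HA22T and 0.03, -0.32 and -0.39 in PLC5. Both stood above PLC5 on every HA22T array, FADS2 by 4.83 (limma adjusted p = 5.73e-05) and SREBF1 by 3.03 (limma adjusted p = 2.77e-04). The other 9 were NPC1L1 at -3.27, CYP51A1 at -2.45, MSMO1 at -2.44, SCD at -2.01, IDI1 at -1.90, HMGCS1 at -1.89, DHCR7 at -1.77, LSS at -1.70 and SC5D at -1.15. MVD, NPC1 and ACSL3, called with siControl only, differed by -0.23, 0.70 and 0.22. The NPC1L1 difference was -1.97 with normexp background correction, and it was well above background on 1 of the 3 HA22T siGALNT1 arrays.

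The 12 arrays lay on 2 slides, and PLC5 replicates 2 and 3 of both siRNAs were on the second slide, apart from all HA22T arrays. The blocked line differences therefore rest on PLC5 replicate 1, with 1 array for each siRNA. Among the PLC5 siControl arrays, replicate 1 read highest for ACAT2 (5.29), PMVK (2.19), FDFT1 (1.19) and NSDHL (1.88). It read lowest for STARD4 (-2.95) and MYLIP (-5.04). Under the block, the gains listed next thus depend on that replicate. Outside the block, other alternatives also called ACAT2, FDFT1, STARD4 and MYLIP with siControl, and PMVK and NPC1 with siGALNT1. The share of all genes called with the block is not given here. With slide as a block, 18 genes were called with siControl, 12 of them among the 15, and 15 with siGALNT1, 11 of them among the 12. The 6 calls gained with siControl were ACAT2 at -1.54 (limma adjusted p = 0.0282), PMVK at -1.42 (0.0233), FDFT1 at -1.51 (0.0238), NSDHL at -1.44 (0.0250), STARD4 at 1.09 (0.0473) and MYLIP at 1.42 (0.0496). The 4 gained with siGALNT1 were PMVK at -1.82 (limma adjusted p = 0.00624), NSDHL at -1.51 (0.0189), FDFT1 at -1.28 (0.0461) and NPC1 at 0.91 (0.0361). Within the first slide, where PLC5 had 1 array for each siRNA, all 15 and all 12 differences kept their sign, and TM7SF2 differed by -5.02, FADS2 by 4.89 and SREBF1 by 2.87 with siControl. The calls of ACSL3, MVD and SC5D with siControl, and of SC5D with siGALNT1, were lost with the block, at limma adjusted p of 0.0527, 0.0845, 0.141 and 0.128.

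Several of the smaller calls also rested on single arrays. NPC1 lost its siControl call without any one array other than PLC5 siGALNT1 replicate 2, at limma adjusted p up to 0.138, and ACSL3 without any array of either siControl group or HA22T siGALNT1 replicate 2 or 3, at up to 0.119. MVD lost it without HA22T siControl replicate 1 or 2, HA22T siGALNT1 replicate 3 or any PLC5 siControl array, at up to 0.117. LSS lost it without HA22T siControl replicate 2 or 3 or PLC5 siControl replicate 1 or 2, at up to 0.128, and SC5D without HA22T siControl replicate 2 or PLC5 siControl replicate 2 or 3, at up to 0.0775. With the methods' t-test, DHCR7 and SCD lost their siControl calls, at adjusted p of 0.0621 and 0.063. With siGALNT1, DHCR7 lost its call without PLC5 siGALNT1 replicate 1 (0.0556) and SC5D without replicate 2 of HA22T or PLC5 siGALNT1 (0.0843 and 0.0813). TM7SF2, CYP51A1, MSMO1, IDI1, HMGCS1, SREBF1 and FADS2 were called with siControl under each of the 27 settings tried, and CYP51A1, SREBF1 and FADS2 also with siGALNT1.

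A further 20 genes of the same pathways, outside the 36, were read for comparison. With siControl, 10 of the 20 were called, 8 lower and 2 higher in HA22T, with a median of -0.65. Over all counted genes, 26.6% were called, 12.4% lower and 14.2% higher, with a median of 0.10. Among those with large differences were ABCG1, a cholesterol exporter, at -2.83 (limma adjusted p = 3.14e-04), ACSS2, which makes acetyl-CoA from acetate, at -2.05 (limma adjusted p = 0.00202), and AACS, acetoacetyl-CoA synthetase, at -1.63 (limma adjusted p = 0.00199). With siGALNT1, 11 of the 20 were called, 10 lower and 1 higher, with a median of -0.90. Over all counted genes, 26.6% were called with siGALNT1, 15% lower and 11.6% higher, with a median of 0.07. ABCG1 then differed by -3.09, ACSS2 by -2.55 and AACS by -1.40.

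With the knockdown of GALNT1, no gene of the 36 was called in either line, by a test that did not call GALNT1 by its brighter probe either. In HA22T, 35 of the 36 genes were counted, since NPC1L1 was too dim, and 0 were called between siGALNT1 and siControl, as were 0% of 16963 genes by the limma test with Benjamini-Hochberg adjustment, read from their brightest probe. The methods' t-test with the same adjustment, which the paper does not name, called 0 of the counted genes among the 36 as well. At an unadjusted p under 0.05, 1 of the 35 genes passed, against 2.64% of all genes, and the same 1 gene passed the criterion of 1.5-fold with that p, against 2.52%. The median change was -0.02, against -0.10 over all counted genes, and ran from -0.07 to 0.18 with one array left out, the highest without HA22T siGALNT1 replicate 1. The 95% interval held 0 for 34 of the 35 genes, and for 15 it lay wholly within 1 log2 unit of 0.

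That gene was ACAT2. It read 2.99, 4.32 and 3.89 with siControl and 4.84 and 4.55 on the 2 siGALNT1 arrays with a value, the spot of replicate 1 having been marked non-uniform. Its siGALNT1 values lay above its siControl values, by 0.96 on the log2 scale (SE 0.42, 95% interval 0.03 to 1.90, limma unadjusted p = 0.0449, adjusted p = 1.00), and the exact permutation p was 0.2. The change was 0.72 with that spot kept, 0.59 with a replicate block and 0.59 without HA22T siControl replicate 1, and the adjusted p stayed between 0.849 and 1.00 in the alternatives that left out no array and counted it. All 8 genes of the fatty acid arm had negative changes, with a median of -0.20 and a range from -0.74 for FADS1 to -0.01 for FASN, and 63.5% of all counted genes were negative too. With normexp background correction 5 of these 8 were negative, and 4 were without HA22T siGALNT1 replicate 1, 5 without HA22T siGALNT1 replicate 2 or siControl replicate 3 and 6 without siControl replicate 1. In PLC5 all 8 were positive, and without PLC5 siGALNT1 replicate 1 only 1 was. ACSL3 read -1.23, -1.22 and -1.06 with siControl and -1.64, -1.43 and -1.34 with siGALNT1. It was the only one of 31 genes with 3 values in each group whose groups did not overlap, lower with siGALNT1 by 0.30, against 5.71% of all genes lower and 3.18% higher. TM7SF2, SREBF1 and FADS2 changed by -0.09, -0.24 and -0.23, and the interval of each held 0. Over the HA22T replicate pairs, 4 of 31 genes were lower with siGALNT1 in all 3 pairs (PMVK, LSS, SREBF1 and ACSL3), against 25.6% of all genes, and 4 higher (HMGCS1, FDFT1, NPC1 and MYLIP), against 9.54%. SREBF1 changed by -0.42, -0.10 and -0.20 in these pairs. LSS changed by -0.64, 0 and -0.52, so in the second pair it was lower only before rounding. With the replicate block 0 of the 35 counted genes were called.

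In PLC5, all 36 genes were counted, 0 were called and 0 had an unadjusted p under 0.05, against 0% and 0.797% of 17311 genes by the limma test. The median change was 0.08, against 0.04 over all counted genes. With one array left out it turned from -0.04 without PLC5 siGALNT1 replicate 1 and -0.01 without PLC5 siControl replicate 3 to 0.34 without PLC5 siGALNT1 replicate 3. It was also 0.16 without PLC5 siControl replicate 1 and 0.01 without PLC5 siGALNT1 replicate 2. The changes of single genes had a range from -0.34 for NPC1L1 to 0.45 for MYLIP. The 95% interval held 0 for all 36, and for 25 of them it lay within 1 log2 unit of 0. The smallest p-values belonged to NPC1, HMGCS1 and MYLIP. NPC1 read 0.21, 0.48 and 0.59 with siControl and 0.50, 0.99 and 0.65 with siGALNT1, a change of 0.29 (limma unadjusted p = 0.248). HMGCS1 read 0.99, 1.02 and -0.02 with siGALNT1, against the siControl values given above, a change of 0.36 (limma unadjusted p = 0.276). MYLIP read -5.04, -4.93 and -4.54 with siControl and -5.07, -3.63 and -4.46 with siGALNT1, a change of 0.45 (limma unadjusted p = 0.284). In each the groups overlapped, and MYLIP was well above background on only 2 of the 3 arrays of either PLC5 group. No gene of the 36 had groups that did not overlap, against 2.25% of all genes higher and 1.37% lower.

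**Figure D4:**
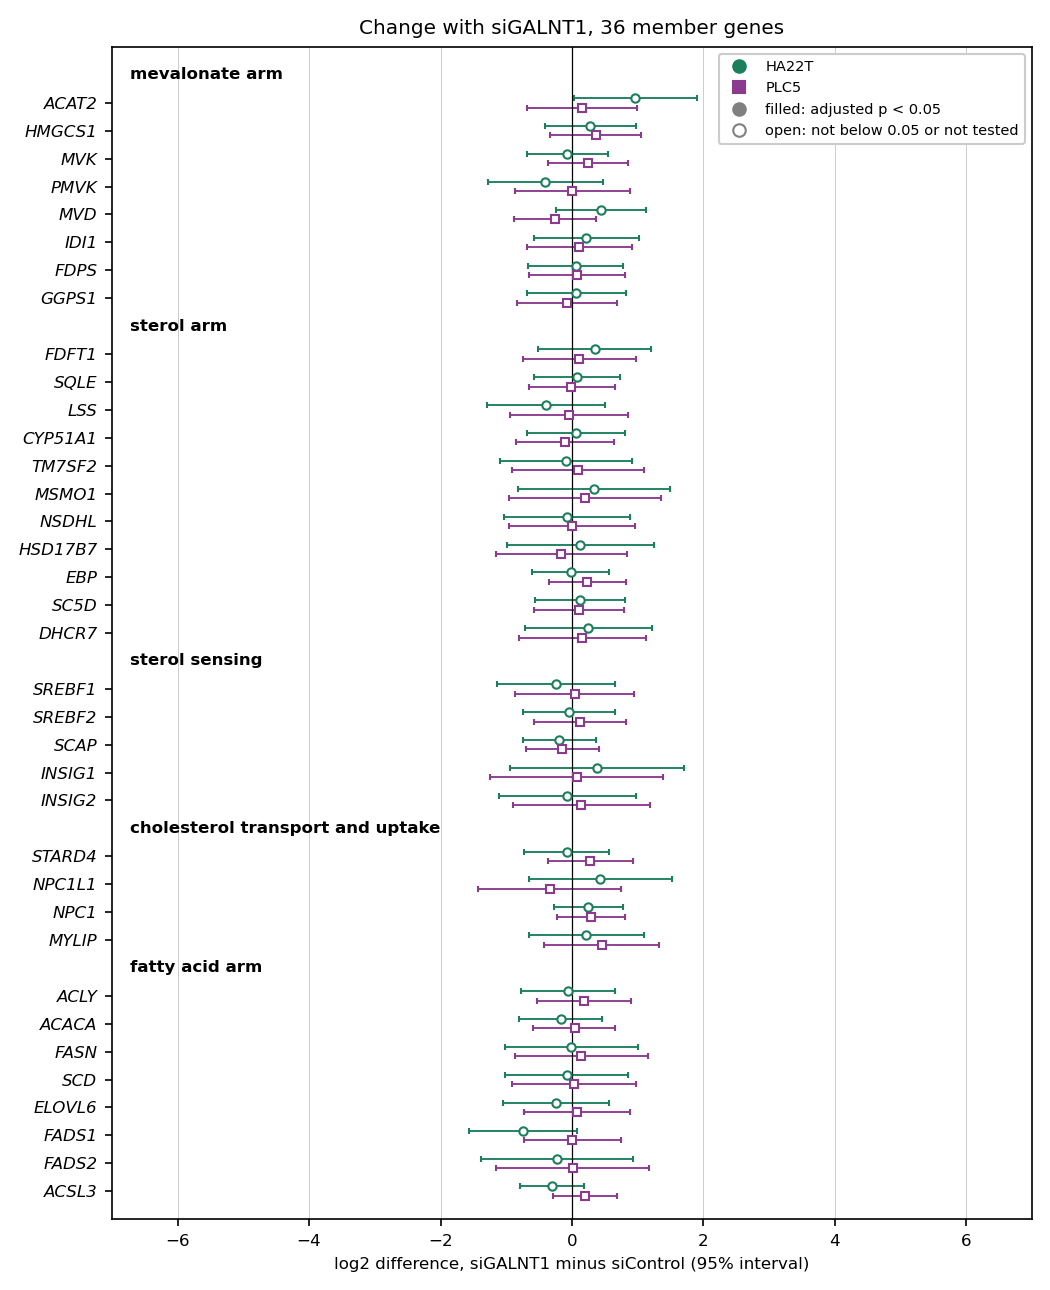
Log2 change, siGALNT1 minus siControl, with its 95% interval for each of the 36 genes by role, in HA22T (circles) and PLC5 (squares), on the same axis as the plot of differences between the lines. No symbol is filled, since 0 genes had a limma adjusted p under 0.05, and the changes span -0.74 (FADS1) to 0.96 (ACAT2) for HA22T and -0.34 to 0.45 for PLC5.

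The change with siGALNT1 was also compared between the lines through the interaction term. By the limma test 0 of the 36 genes were called and 0 had an unadjusted p under 0.05, against 0% and 1.92% of 18185 genes. The differences of the change, HA22T minus PLC5, ran from -0.74 for FADS1 to 0.81 for ACAT2, and the smallest unadjusted p was 0.121, for MVD. Of the 20 further genes, 0 were called in either line. The intervals of the interaction were wide, and only 3 of 36 lay within 1 log2 unit of 0, so a moderate difference between the lines was not detectable with 3 arrays in each group.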

How the data were processed

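Total RNA of 12 samples was labelled and hybridised by the authors to one-colour Agilent SurePrint G3 8x60K v2 arrays, which were scanned and read with Agilent Feature Extraction 10.5.1.1. The deposited scanner files hold the spot intensity (processed signal, background subtracted, on a linear scale), and a table of log2 values by the authors was deposited beside them. Precision is limited by the 3 arrays in each group.

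The log2 processed signal was set to each array's 75th percentile. Non-uniform spots were left out, as in the study's methods, and spots of a probe were averaged. Probes were named through their RefSeq transcript, which gave 28174 of 50599 a gene. All 4 groups were fitted in limma 3.58.1 (R 4.3.3) with lmFit and eBayes. Probes flagged well above background in fewer than 3 of the 6 arrays compared were not counted, and p-values were Benjamini-Hochberg adjusted over counted probes. Each gene took the value of its brightest probe that had one in every group. The fit was tested on simulated data of 32404 probes, few of them changed, with independent noise and no slide effect. Changes of 1, 2 and 3 log2 units between the lines were recovered for 14%, 68% and 90% of changed probes, with 7 false calls among 143. In the real siControl line comparison 26.6% of genes were called. The adjustment depends on that share, so the simulated percentages do not give the recovery or false calls there. Single values were also given exact permutation tests (two-sided, smallest p 0.1). Calls by the t-test of the study's methods, an alternative named below, were Benjamini-Hochberg adjusted too, an adjustment the paper does not name.

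The changes within HA22T replicate pairs were added after seeing the data. The members and gene lists were chosen with earlier results of these data known. Values were given for each array for at most 12 genes called between the lines by largest difference, and for siGALNT1 for members with an unadjusted p under 0.05 or, with none, for those with the smallest p. Of the further pathway genes, those with the largest called differences were named, and 1 result is not reported here. ACSL3, EBP and SREBF2 in addition were chosen after their values were seen. Replicate numbers were shared between siRNAs. The deviations of same-numbered arrays correlated at 0.555, 0.402 and 0.427 in HA22T, which were taken as pairs, and at 0.701, -0.0446 and 0.181 in PLC5, which were not. Alternatives were other background corrections, scalings, spot and intensity filters, the deposited log2 table, slide and replicate blocks, other spread estimates, a fit of the 6 arrays compared alone, the methods' t-test, the mean over probes and leaving out each array in turn.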

Additional observations from a re-analysis of the deposited data

How the results depend on the processing

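No difference of a gene called between the lines changed sign under any of the 27 settings. Among the genes not called with siControl, EBP and ELOVL6 turned from 0.06 and 0.29 to -0.29 and -0.14 with slide as a block. With quantile normalization all 19 synthesis enzymes were negative with siControl, so MVK and EBP turned sign there. The number of genes called with siControl (15) ran from 11 to 18 over 15 alternatives and from 10 to 16 with one array left out, and with siGALNT1 (12) from 4 to 15 and from 11 to 13. The 4 came from the methods' t-test on the same values, and the cause was not tested. Of 729 values of the genes called in the main line comparisons, 664 kept the call and 65 lost it. Genes that gained a call were not followed in this count. The median siControl difference of -0.66 ran from -0.78 to -0.40 with one array left out, the latter without PLC5 siControl replicate 1. Median scaling moved the median of all counted genes with siControl from 0.10 to 0.21 and that of the 36 genes to -0.55.

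With the replicate block, 17 genes were called with siControl and 14 with siGALNT1, MVD being lost with siControl, and 0 with the knockdown in either line. In the line comparisons this block joined same-numbered arrays of both lines, a link the labels do not give. For the knockdown it paired same-numbered arrays within each line, PLC5 included. The share of all genes called is given for the main fit alone. The single gene past 1.5-fold with an unadjusted p under 0.05 in HA22T was no longer past it (0 genes) with the replicate block, median scaling, the deposited log2 table, non-uniform spots kept, the filter on all 6 arrays, the fit of the 6 arrays alone or the methods' t-test. That count was 2 with the trend in eBayes and ran from 0 to 2 with one array left out. In PLC5 it ran from 0 to 1, the 1 without PLC5 siGALNT1 replicate 3. The cause was not tested. Genes called with the knockdown numbered 0 in both lines under all alternatives, and the interaction 0 under the 13 that give it. Dim probes limit NPC1L1 in HA22T, where the filter on all 6 arrays left it uncounted in the line comparison, and TM7SF2 with siGALNT1.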
